A study of Homo sapiens with 6 samples.

Results

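The 10 genes described here are the metallothioneins MT1E, MT1F, MT1G, MT1M, MT1X and MT2A, the metal-sensing transcription factor MTF1, the zinc exporter gene SLC30A1 and the zinc importer genes SLC39A4 and SLC39A10. They were taken by name from an mRNA table of 19912 rows, and each name had 1 row. The table holds RNA-seq values from 6 libraries of PANC-1, an established human pancreatic ductal carcinoma line, in a form that the labels call gemcitabine resistant; that phenotype is shared by all libraries. Of these, 3 carry the treatment label ctrl and 3 the label shSRSF3, a short hairpin RNA against the splicing factor gene SRSF3. The labels name no vector for the controls, no time after the hairpin, no drug in the medium and no separate cultures, so the replicates may be technical, and p-values cover no more than the spread among these libraries. The comparison asks how expression differs between cells with and without the knockdown label.

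Metallothioneins are short, cysteine-rich proteins that bind zinc, copper and cadmium and so buffer free metal in the cell. When zinc rises, MTF1 binds metal response elements (MREs) before its target genes, among them the metallothioneins and SLC30A1, whose product moves zinc out of the cytosol. Proteins of the SLC39 family bring zinc into the cytosol, and SLC39A4 is known as an importer of the gut that is abundant in many pancreatic cancers.

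For 5 of the 10 genes (MT2A, MT1X, MTF1, SLC30A1 and SLC39A10) the RefSeq promoter table of build GRCh38.p14 held a window; MT1E, MT1F, MT1G, MT1M and SLC39A4 had none. The 250 bases before the annotated start are printed for the textbook MTF1 targets among them, MT2A (chr16:56608334-56608583, plus strand), MT1X (chr16:56682220-56682469, plus strand) and SLC30A1 (chr1:211579162-211579411, minus strand). Capitals mark matches to the MRE core in its A form (TGCACNC) or its G form (TGCGCNC) on either strand.
MT2A: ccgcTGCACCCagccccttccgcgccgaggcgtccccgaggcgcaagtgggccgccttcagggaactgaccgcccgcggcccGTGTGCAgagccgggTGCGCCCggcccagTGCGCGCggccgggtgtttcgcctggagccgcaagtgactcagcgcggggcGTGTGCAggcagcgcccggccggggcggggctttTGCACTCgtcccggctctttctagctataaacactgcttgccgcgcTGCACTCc
MT1X: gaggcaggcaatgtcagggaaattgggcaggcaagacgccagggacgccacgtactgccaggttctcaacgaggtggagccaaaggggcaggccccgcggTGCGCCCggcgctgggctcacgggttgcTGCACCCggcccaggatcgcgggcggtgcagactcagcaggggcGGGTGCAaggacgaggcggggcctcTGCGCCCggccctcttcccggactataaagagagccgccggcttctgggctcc
SLC30A1: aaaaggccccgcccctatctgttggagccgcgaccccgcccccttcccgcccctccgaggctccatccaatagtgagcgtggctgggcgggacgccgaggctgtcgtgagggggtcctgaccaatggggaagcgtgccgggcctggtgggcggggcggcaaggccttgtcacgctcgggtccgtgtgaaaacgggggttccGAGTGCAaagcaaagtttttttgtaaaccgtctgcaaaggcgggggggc
MT2A held 7 matches, 5 of the A form and 2 of the G form, MT1X held 4 and SLC30A1 held 1, while the windows of MTF1 and SLC39A10 held 0. At least 1 match to either form was found in 24.8% of 35116 windows of this length, at least 4 in 0.370% and at least 7 in 0.0313%. A TATA box (TATAAA, either strand) began at position -29 from the start in MT2A and -30 in MT1X, and 10.7% of all windows held one. GC boxes (GGGCGG, either strand) numbered 2 in MT2A, 2 in MT1X and 6 in SLC30A1, where 2 of the 6 overlap by 1 base, and 42.6% of windows held at least 1. No match overlapped a match of another motif on the same strand in these 3 windows, whereas in MT1X a GC box and an MRE on opposite strands shared bases. These matches describe letters in the reference and were not measured in the cells.

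**Figure D1:**
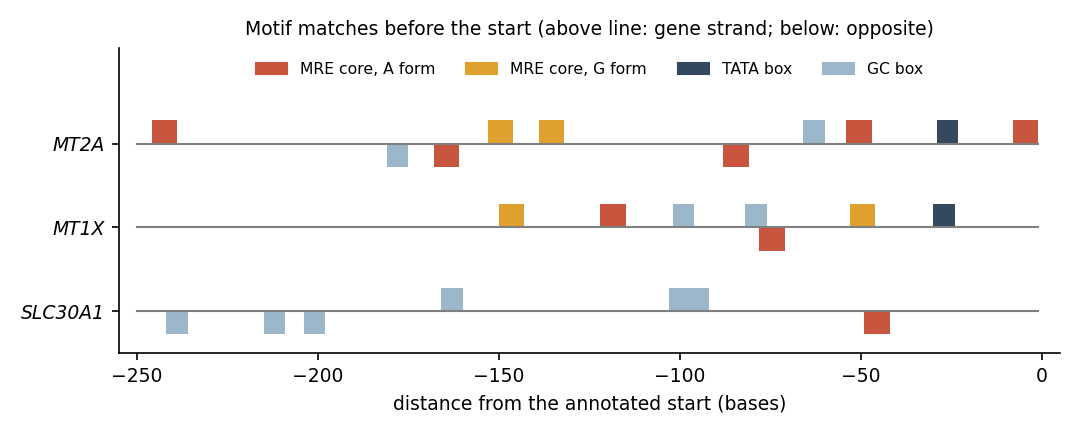
Matches to 4 motifs (colours) in the 250 bases before the annotated start of MT2A, MT1X and SLC30A1, by distance from the start in bases. Boxes above each line are on the strand of the gene and boxes below on the other; MT2A carries 7 MRE matches, MT1X 4 and SLC30A1 1.

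Library totals recovered from the deposited values ran from 24558238 to 27351642 fragments. SRSF3 stood at 38.6 ± 1.40 FPKM (fragments scaled by gene length and library total) on average over the controls and 37.5 ± 0.900 FPKM under the knockdown label (SD, n = 3 each; limma adjusted p = 0.612), so the label is used below as a label, and every direction is that of libraries carrying it. Of the ductal epithelial markers, KRT8, KRT18, KRT19 and EPCAM were abundant, at 1613, 1391, 424.3 and 176.04 FPKM in controls, while KRT7 stood at 0.187 FPKM. The mesenchymal marker VIM, which PANC-1 is known to express, stood at 0.0101 FPKM in controls and 0.0275 FPKM under the knockdown label. Markers of fibroblasts, immune, endothelial, hepatocyte-like and acinar cells summed to at most 0.751 FPKM per type and library, with COL1A2, PTPRC and AMY2A at 0 in all 6. In the whole table, 1819 of 10823 tested genes passed the threshold, a limma adjusted p under 0.05 (Benjamini-Hochberg over all tested genes), which is 16.8%.

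MT2A and MT1F were lower in the libraries labelled knockdown, and no other tested gene among the 10 was called. Of the 10, 7 had a mean of at least 0.5 FPKM and were tested. Limma called 2 of the 7 lower, where 5.91% of all tested genes were called lower, and 0 higher, where 10.9% were. The genes were chosen with earlier results of these data known, so counts beside these shares are descriptive and enrichment was not tested. An unadjusted p under 0.05 was found for 3 of the 7, and for 3575 of all 10823 tested genes (33.0%). The groups did not overlap in 3 of the 7, where 37.9% of all tested genes had groups that did not overlap. The median log2 change of the 7 was -0.06, against 0.02 over all tested genes. Changes are on log2(FPKM + 1), which understates the change of low genes, and in bulk RNA fewer cells with a transcript and less of it per cell cannot be told apart.

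MT2A, the most abundant of the 10 genes, encodes the main metallothionein of many human epithelial cells. It stood at 612.9, 646.2 and 554.5 FPKM in controls 1 to 3 and at 450.8, 373.5 and 370.02 FPKM in knockdown-labelled libraries 1 to 3. Every library labelled knockdown lay below every control, with knockdown library 1 the closest to them. The mean fell by 34.1%, from 604.5 ± 46.4 to 398.1 ± 45.7 FPKM (SD, n = 3 each). The fit gave a log2 change of -0.60 (SE 0.09, 95% interval -0.80 to -0.40, limma adjusted p = 0.00266), and the values rest on 12082 to 21457 fragments per library. An exact two-sided permutation test of the 3 against 3 values gave p = 0.1, the smallest it can give.

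MT1F, a less abundant metallothionein of the same gene cluster, was measured at 12.7, 14.1 and 12.3 FPKM in controls 1 to 3. Under the knockdown label it was at 9.34, 9.10 and 7.93 FPKM in libraries 1 to 3, each below every control. The mean fell by 32.7%, from 13.1 ± 0.960 to 8.79 ± 0.753 FPKM (SD, n = 3 each), with a log2 change of -0.52 (SE 0.07, 95% interval -0.68 to -0.37, limma adjusted p = 0.00162; exact permutation p = 0.1). Its values rest on 409 to 683 fragments per library.

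MT1E, the second most abundant metallothionein here, did not pass the test. Its values in controls 1 to 3 were 121.1, 121.9 and 120.4 FPKM, and in knockdown-labelled libraries 1 to 3 they were 162.4, 125.3 and 116.6 FPKM. The groups overlapped, and knockdown library 1 alone stood well above the rest. The log2 change was 0.14 (SE 0.10, 95% interval -0.08 to 0.36, limma adjusted p = 0.366). It was -0.003 without knockdown library 1, 0.23 without knockdown library 3 and 0.04 after quantile normalization. Knockdown library 1 also had the highest FPKM sum over the mRNA table, 336887. The sums were 308101 and 287148 in knockdown-labelled libraries 2 and 3, and 285701, 284236 and 275359 in controls 1 to 3. Every library labelled knockdown thus had a higher sum than any control. The part of this difference in the MT1E value, or in other comparisons of FPKM, was not tested.

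MT1X, another metallothionein of the cluster, stood at 7.88, 6.69 and 7.53 FPKM in controls 1 to 3 and at 6.43, 7.72 and 7.13 FPKM in knockdown-labelled libraries 1 to 3. The groups overlapped across nearly their whole range, and the log2 change was -0.05 (SE 0.07, 95% interval -0.21 to 0.12, limma adjusted p = 0.689). Leaving out 1 library moved it between -0.11 (control 2) and 0.01 (knockdown library 1). The interval excludes a fall as large as that estimated for MT2A or MT1F. MT1G and MT1M were listed at 0 in all 6 libraries, as were 3597 rows of the table. SLC39A7, an importer gene that most cells use, was also listed at 0, and the widely expressed glucocorticoid receptor gene NR3C1 stood near 0 (0.0196 FPKM in controls), so a 0 in this table is not read as absence of the transcript. Metallothionein genes are similar in sequence, and how reads that match several of them were counted is not stated in the labels or the table. Such reads can have been split between them or left out, so their separate levels are uncertain.

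**Figure D2:**
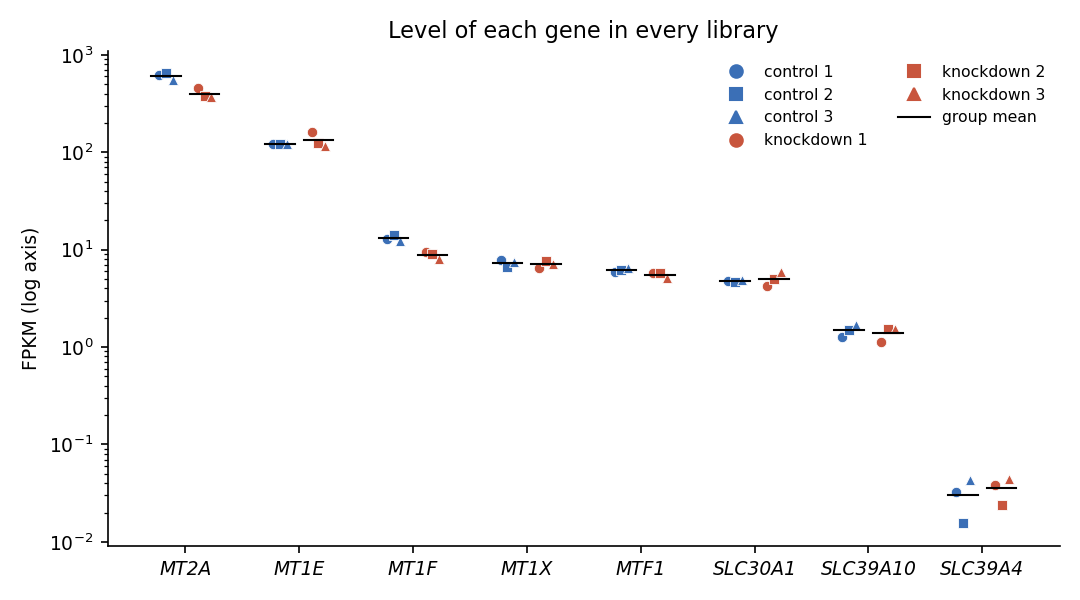
FPKM on a log axis for the 8 genes above 0, with control libraries in blue, libraries labelled knockdown in red and the group mean as a line. MT2A, MT1F and MTF1 show groups that do not overlap; MT1G and MT1M, listed at 0, are not drawn.

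Together the 6 metallothioneins among the 10 genes summed to 754.6, 789.004 and 694.7 FPKM in controls 1 to 3. In knockdown-labelled libraries 1 to 3 they summed to 628.9, 515.6 and 501.7 FPKM. MT1A, a metallothionein outside the 10 genes at 10.8 to 18.4 FPKM, was not part of this sum. The sum was lower in every library labelled knockdown than in any control. MT2A made up 80.98 ± 1.07% of the sum in controls and 72.6 ± 1.05% under the knockdown label, and MT1E 16.3 ± 0.958% and 24.5 ± 1.29% (SD, n = 3 each). MT1F held 1.75 ± 0.0553% and 1.61 ± 0.142%, a range that overlapped between groups. These shares depend on the gene length used for each FPKM, and they were not tested, since they combine genes chosen together.

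**Figure D3:**
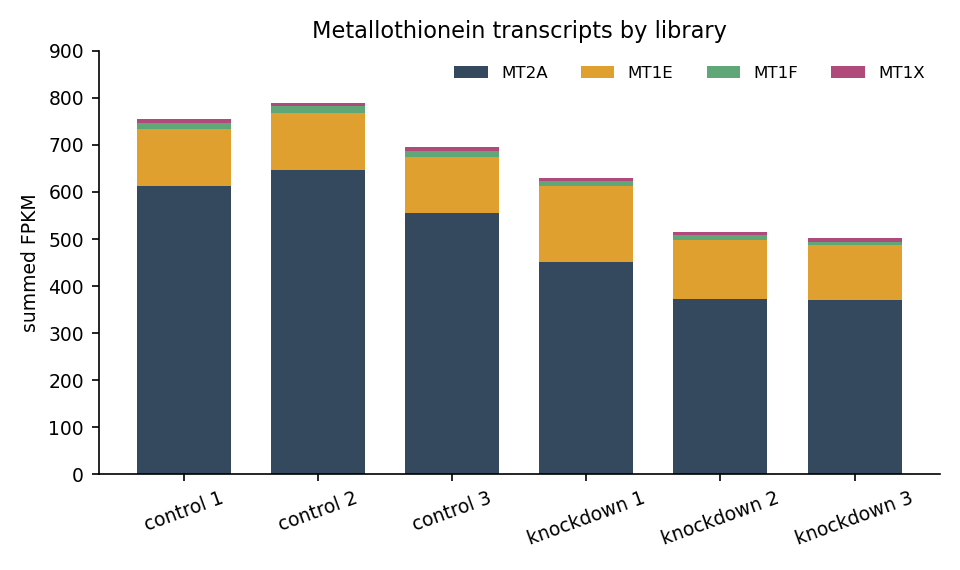
Summed FPKM of MT2A, MT1E, MT1F and MT1X in each library, stacked from 0. The dark MT2A part spans 554.5 to 646.2 FPKM in controls and 370.02 to 450.8 FPKM under the knockdown label, and the MT1E part spans 116.6 to 162.4 FPKM over all libraries.

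Ratios between 2 metallothioneins within a library do not depend on how that library was scaled. All 6 pairs of the 4 metallothioneins above 0 among the 10 genes were compared, again without MT1A. MT1E over MT2A was 0.198, 0.189 and 0.217 in controls 1 to 3 and 0.360, 0.335 and 0.315 in knockdown-labelled libraries 1 to 3. The groups did not overlap, and the log2 ratio was higher by 0.74 under the knockdown label, with an exact two-sided permutation p = 0.1 (0.15 adjusted over the 6 pairs), where 0.1 is the smallest possible. MT1E over MT1F and MT1X over MT2A were also higher in every library labelled knockdown, by 0.71 and 0.55 on the log2 scale, and MT1F over MT1X was lower, at -0.52 (exact permutation p = 0.1 for each, 0.15 adjusted). For MT1F over MT2A, the pair of genes called lower, the ratios were 0.0208, 0.0219 and 0.0222 in controls and 0.0207, 0.0244 and 0.0214 under the knockdown label. These overlapped, with a log2 difference of 0.03 (exact permutation p = 0.9). MT1E over MT1X also overlapped, with a log2 difference of 0.19 (exact permutation p = 0.5, 0.6 adjusted). The 6 ratios come from 4 genes and are not independent. Each pair without overlap joined a gene called lower to a gene not called, so these ratios rest on the same values as the single-gene changes above.

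**Figure D4:**
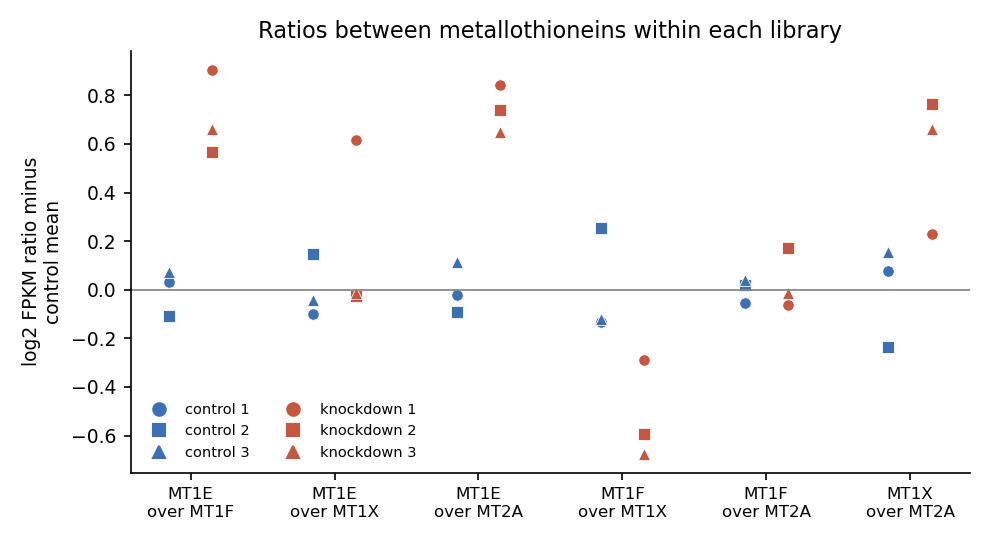
log2 of the FPKM ratio of each pair of MT1E, MT1F, MT1X and MT2A in each library, minus the mean of the 3 controls for that pair. MT1E over MT2A lies above all controls in the 3 libraries labelled knockdown, and MT1F over MT2A lies on both sides of the control mean in both groups.

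MTF1, the factor that turns metallothionein genes on, stood at 5.94, 6.25 and 6.52 FPKM in controls 1 to 3. Under the knockdown label it stood at 5.77, 5.72 and 5.08 FPKM in libraries 1 to 3. Every one of these lay below the controls, though the gap to the lowest control was small. The log2 change of -0.15 (SE 0.06, 95% interval -0.29 to -0.01) did not pass the test over all genes (limma adjusted p = 0.125, unadjusted p = 0.0367). Its FPKM was similar to that of SLC30A1 under the knockdown label, where the ranges of the pair overlapped; in controls they did not.

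SLC30A1, the exporter gene driven by MTF1, was tightly grouped in controls, at 4.80, 4.70 and 4.86 FPKM. In knockdown-labelled libraries 1 to 3 it was at 4.19, 5.05 and 5.88 FPKM, so the controls lay inside the range of the other group. The SD was 0.0841 FPKM in controls and 0.845 FPKM under the knockdown label. The log2 change was 0.05 (SE 0.09, 95% interval -0.15 to 0.25, limma adjusted p = 0.714). It was -0.05 without knockdown library 3 and 0.16 without knockdown library 1.

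SLC39A10, an importer of the cell surface, stood at 1.27, 1.50 and 1.70 FPKM in controls 1 to 3 and at 1.13, 1.52 and 1.51 FPKM in knockdown-labelled libraries 1 to 3. The groups overlapped, with a log2 change of -0.06 (SE 0.09, 95% interval -0.26 to 0.13, limma adjusted p = 0.656). That value was -0.13 without control library 1, -0.002 without control library 3 and 0.02 without knockdown library 1. SLC39A4 was close to 0 throughout, at 0.0324, 0.0155 and 0.0436 FPKM in controls and 0.0388, 0.0239 and 0.0437 FPKM under the knockdown label. This rests on 2 to 6 fragments per library, below the filter of the test, and no difference was detectable at this depth (exact permutation p = 0.6).

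By FPKM, the order in both groups was MT2A, MT1E, MT1F, MT1X, MTF1, SLC30A1, SLC39A10 and SLC39A4. Such an order rests on the gene length used for each FPKM. MT1X, at a recovered 1773 bases, held 292 to 365 fragments per library, and MTF1, at 8024 bases, 1113 to 1430. Neighbours in that order did not overlap in FPKM among controls, and under the knockdown label MTF1 and SLC30A1 alone did. In controls the mean FPKM of MT2A was 4.99 times that of MT1E and in the libraries labelled knockdown 2.95 times, while the mean of MT1F was 1.77 and 1.24 times that of MT1X.

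Among other zinc genes, 1 of 13 tested transporters was called, where 16.8% of all tested genes were. SLC39A3, an importer of the same family, rose from 10.4 ± 0.464 to 13.2 ± 0.506 FPKM (SD, n = 3 each; log2 0.32, SE 0.05, limma adjusted p = 0.00476). Its values were 10.9, 9.99 and 10.3 FPKM in controls 1 to 3 against 13.6, 13.5 and 12.6 FPKM in knockdown-labelled libraries 1 to 3, with no overlap. Of 12 other importers, 8 were tested, with a median log2 change of 0.10. Limma called 1 higher and 0 lower, where 10.9% and 5.91% of all tested genes were. Of the 8, 4 had an unadjusted p under 0.05 (33.0% of all tested genes) and 4 had groups that did not overlap (37.9%). Of 10 other exporters, 5 were tested and limma called 0, with a median of -0.08. An unadjusted p under 0.05 was found for 2 of the 5, against 33.0% of all tested genes. These were SLC30A4 and SLC30A6, with log2 changes of -0.22 and -0.13 (limma adjusted p = 0.112 and 0.133). The SLC30A4 value was -0.46 with a pseudocount of 0.1 and -0.52 with voom, and -0.14 without knockdown library 1. It was called lower without knockdown library 3 (-0.31, limma adjusted p = 0.0185). Of 9 other metallothioneins, MT1A alone was tested. It stood at 13.6, 10.8 and 13.9 FPKM in controls and 18.4, 14.7 and 15.2 FPKM under the knockdown label, groups that did not overlap. Its log2 value of 0.32 (SE 0.10) did not pass (limma adjusted p = 0.0565). That p was 0.0306 at a mean of at least 5 FPKM and 0.0477 without knockdown library 3, but 0.166 with no filter, 0.136 with voom and 0.136 without knockdown library 1. Without control library 2 it was 0.189, with a log2 value of 0.21. MT3, the metallothionein known from brain, was below the filter, at 0.528 ± 0.0872 and 0.348 ± 0.0438 FPKM.

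**Figure D5:**
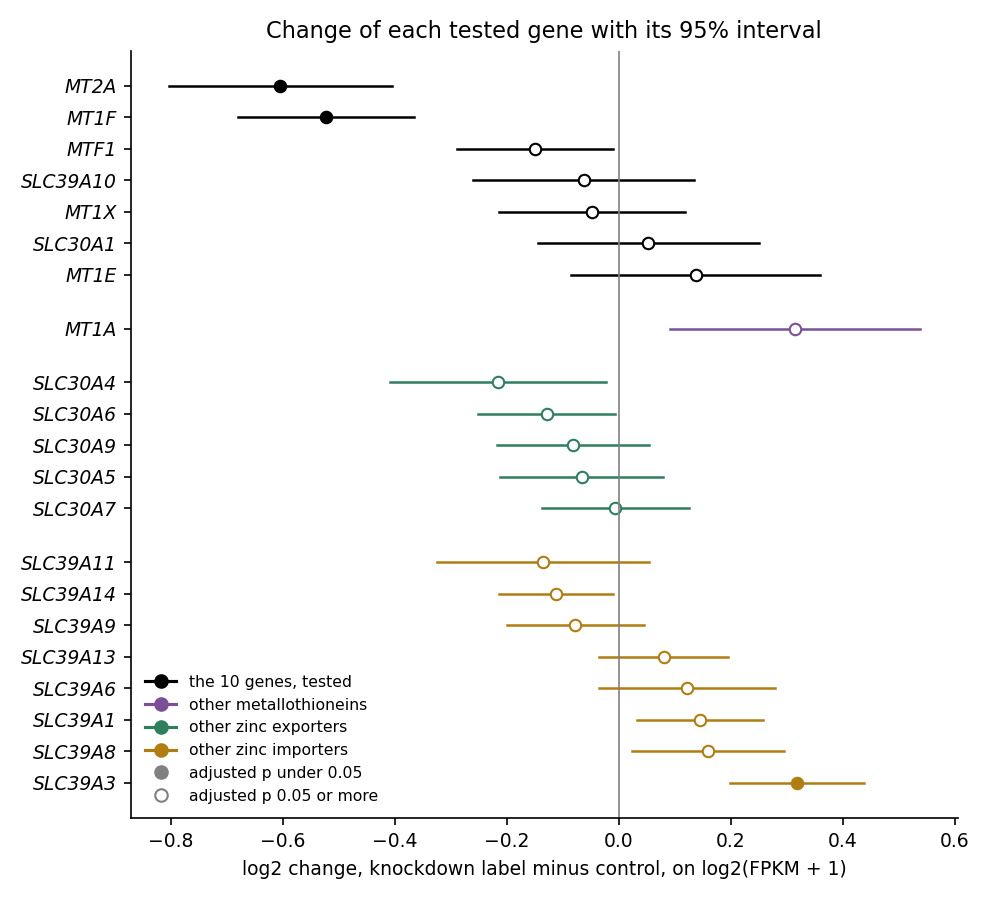
log2 change under the knockdown label with its 95% interval for the 7 tested genes of the 10 (black) and for other tested metallothioneins, exporters and importers; filled points passed the test. MT2A and MT1F lie apart on the lower side, and SLC39A3 is the filled point on the upper side.

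Other genes that answer to metals were mixed. Of 9 tested metal-stress genes, 2 were called higher and 0 lower, where 10.9% and 5.91% of all tested genes were. Their median log2 change was 0.07, with a range of -0.21 to 0.43. An unadjusted p under 0.05 was found for 4 of the 9, against 33.0% of all tested genes. These were TXNRD1, SRXN1 and BAG3, higher, and GCLC, lower (log2 -0.17, limma adjusted p = 0.0541). HMOX1, GCLM and SLC7A11 were also lower, at log2 -0.17, -0.08 and -0.21, and DNAJB1 and HSPH1 higher, at 0.11 and 0.07, none of them called. TXNRD1, the cytosolic thioredoxin reductase, rose from 101.5 ± 1.07 to 117.1 ± 2.86 FPKM (limma adjusted p = 0.0187), a call lost after quantile normalization (0.331) and on leaving out controls 1, 2 or 3 (0.0735, 0.0892 and 0.0774) or knockdown library 2 (0.0640). SRXN1, which repairs oxidised peroxiredoxins, rose from 6.30 ± 0.574 to 8.90 ± 1.65 FPKM (limma adjusted p = 0.0267), a call lost with no filter (0.108) and on leaving out controls 1, 2 or 3 (0.0584, 0.0957 and 0.0577) or knockdown libraries 2 or 3 (0.101 and 0.0521). Of 10 tested copper genes, limma called 0, where 16.8% of all tested genes were called (median log2 change 0.02). An unadjusted p under 0.05 was found for 2 of the 10, below the 33.0% of all tested genes. These were STEAP3, a metalloreductase, and COMMD1, of copper trafficking, with log2 changes of -0.17 and 0.14 (limma adjusted p = 0.139 and 0.1398); the STEAP3 value was -0.11 without knockdown library 3.

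Metallothionein genes also answer to glucocorticoids. Of 7 tested glucocorticoid-responsive genes, 1 was called lower and 0 higher (median log2 change -0.0007), where 5.91% and 10.9% of all tested genes were. Groups did not overlap in 5 of the 7, against 37.9% of all tested genes. The directions were mixed, with TSC22D3, KLF9 and SGK1 lower and PER1 and ERRFI1 higher under the knockdown label. An unadjusted p under 0.05 was found for 2 of the 7, against 33.0%. TSC22D3, which encodes the glucocorticoid-induced leucine zipper, fell from 7.56 ± 0.249 to 6.09 ± 0.111 FPKM (SD, n = 3 each; log2 -0.27, limma adjusted p = 0.0084), a call lost without control library 2 (0.0530). FKBP5, another classical target of the receptor, had a log2 change of -0.0007 (limma adjusted p = 0.995).

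Over the 6 libraries, the genes whose log2(FPKM + 1) followed MT2A most closely, among 6277 with a mean of at least 5 FPKM, were CDCA3 (Pearson r = 0.999), INTS7 (0.994), C1QTNF1 (0.992), CCDC28A (0.9898) and CDKN3 (0.988). These r values describe 6 libraries in 2 groups, share library totals and were the highest of many, so no p is given. CDCA3, a cell cycle gene, stood at 8.47 ± 0.527 FPKM in controls and 6.02 ± 0.571 FPKM under the knockdown label (SD, n = 3 each).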

How the data were processed

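RNA was sequenced from 3 control and 3 knockdown-labelled libraries. The authors deposited FPKM values per gene symbol; the tools listed per the submitters' processing notes are HISAT2, StringTie, Cuffdiff and edgeR, whose use and versions are not given. The build, annotation and use of strand or of reads matching several genes are also not given in the sources used here. A single total per library and length per gene gave whole fragments, within 0.003 fragments (widened by 5e-08 of a fragment per fragment), for 14776 of 14803 rows above 0 in at least 3 libraries; the 8 of the 10 genes above 0 were among them. The 10823 rows whose mean reached 0.5 FPKM were tested on log2(FPKM + 1) with limma 3.58.1 in R 4.3.3 (trend, two-sided, Benjamini-Hochberg, threshold 0.05), without rescaling; the script was tested on simulated data. Exact permutation tests used the 3 against 3 libraries. Fragments were recovered in Python 3.11.15 with numpy 2.4.6. The genes and the 6 other lists were chosen with earlier results of these data known. All 10 genes are given with their values. Of each list the called genes, or the 2 with the smallest p, were named. NR3C1, SLC39A7, MT3 and FKBP5 were named after their values were seen. So were KLF9, SGK1, PER1, ERRFI1, BAG3, GCLC, HMOX1, GCLM, SLC7A11, DNAJB1 and HSPH1. The 5 genes most like MT2A were taken by Pearson correlation. The alternatives tried were a pseudocount of 0.1, a filter at 5 FPKM or none, median scaling, quantile normalization, robust empirical Bayes, voom on recovered fragments, rows on the steps alone, a replicate block and each library left out.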

Additional observations from a re-analysis of the deposited data

How the results depend on the processing

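MT2A and MT1F were called lower, and 0 of the 10 genes higher, under all 15 alternatives, which include leaving out each library. The MT2A log2 change ran from -0.70 to -0.55 with limma adjusted p from 7.18e-05 to 0.028, and that of MT1F from -0.57 to -0.46 with adjusted p from 0.000474 to 0.0208; no other tested gene of the 10 was called under any. The count of called genes in the table, 1819, was 960 with no filter and ran from 647 without control replicate 2 to 2742 without knockdown replicate 3 over the libraries left out. Of the other lists, the block on replicate number gave 1 lower copper gene, 2 lower glucocorticoid-responsive genes and 1 higher metallothionein (MT1A). Of the metal-stress genes it gave 3 higher, against 2 without the block, and 1 lower, against 0. Whether the numbers pair the libraries was not settled. The deviations of same-numbered libraries correlated at 0.078, 0.039 and 0.279, the last being the highest of all pairs. Those of different numbers ran from -0.212 to 0.153, with control replicate 1 closer to knockdown replicate 2 (0.153) than to knockdown replicate 1. The block called 2323 genes, against 1819 without it. Higher metal-stress genes numbered 1 with no filter and 1 with quantile normalization, and lower ones 1 with each of the 5 FPKM filter, median scaling, quantile normalization and voom. The 5 FPKM filter gave 1 higher other metallothionein, and quantile normalization 1 lower importer. With each library left out in turn, the lists held 0 to 2 lower glucocorticoid-responsive genes, 0 to 3 higher and 0 to 2 lower metal-stress genes, 0 to 1 higher other metallothioneins, 0 to 1 lower exporters and 1 to 2 higher importers. The median change of all tested genes moved by under 0.02 (log2) with either scaling. Abundant genes moved more with quantile normalization. MT1E went from 0.14 to 0.04, MT2A from -0.60 to -0.70 and TXNRD1 from 0.20 to 0.08, while MTF1 stayed at -0.15. With 2 to 6 fragments per library, SLC39A4 could not show a difference.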
